A study of Mus musculus with 9 samples.

Results

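The 9 genes described here encode the receptors with which a cell detects double-stranded and foreign RNA, and the proteins most closely tied to them: Ddx58, Ifih1, Dhx58, Mavs, Eif2ak2, Adar, Zbp1, Ddx60 and Tlr3. They were chosen by gene name from the 54532 gene identifiers of the expression table, and each name matched 1 identifier. The choice was made with earlier results of these data known. RNA sequencing was performed on 9 libraries of HT22, an immortalised mouse hippocampal cell line of wild-type genotype, with 3 libraries in each of 3 groups. OGE cells were deprived of oxygen and glucose (OGD) for 2 h and reoxygenated for 24 h with hiPS-MSC-EVs, extracellular vesicles secreted by mesenchymal stem cells that had been derived from human induced pluripotent stem cells. OGP cells received the same deprivation and reoxygenation with PBS in place of the vesicles. Control cells were left untreated. The sources differ on whether the medium after deprivation held serum. The comparison of OGE with OGP addresses the response of injured cells to the vesicles. That of OGP with control addresses deprivation and reoxygenation with PBS together, whose parts cannot be told apart. A difference in serum, if there was one, cannot be told apart from either. The sources do not say whether the libraries of a group came from separate cultures, and the p-values given here reflect only how much these libraries vary.

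RNA sensing begins with the shape and ends of an RNA molecule. In the cytoplasm, RIG-I (encoded by Ddx58) and MDA5 (Ifih1) recognise viral or double-stranded RNA and signal through MAVS on mitochondria, whereas TLR3 recognises double-stranded RNA in endosomes and signals through the adaptor TRIF (Ticam1). Both routes activate the kinase TBK1 and the transcription factor IRF3, which induce interferon beta. Secreted interferon then acts through a complex that holds STAT2 and IRF9 on genes that carry an interferon-stimulated response element, and most of the sensors are themselves known interferon-stimulated genes.

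Expression was deposited as FPKM, fragments counted per kilobase of gene and scaled to the library's mapped fragments, so that levels of different genes can be set side by side. The reads assigned to genes, recovered from FPKM and gene length, ranged between 15026700 and 19476806 a library. All 9 genes passed the minimum mean of 0.5 FPKM used for testing, as did 13245 genes in all, and each had between 563 and 7652 reads in every library. OGE library 3 and control library 1 stood apart from the other libraries of their groups on the third principal component, and calls of the 9 genes that changed without them are given with both values. As for the cells themselves, 11 of 13 neuronal markers were below 0.5 FPKM in every library, with Map2 and Tubb3 the 2 tested, while 6 of 7 mesenchymal markers were tested. The mesenchymal markers summed to 381 to 445 FPKM in OGE, 387 to 456 FPKM in OGP and 667 to 980 FPKM in control libraries. Most of each sum was Col1a1, which averaged 369 FPKM in OGE, 383 FPKM in OGP and 777 FPKM in control libraries. Col1a2 and Pdgfra also had their highest mean in control, but Eng had it in OGP and Pdgfrb was close in all groups. Nt5e was highest in OGE, with means of 4.57 FPKM in OGE, 1.66 FPKM in OGP and 1.29 FPKM in control libraries. The 6 astrocyte markers, of which only Slc1a3 was tested and Aqp4 was listed at 0, summed to 2.83 to 3.28 FPKM in OGE, 4.14 to 5.72 FPKM in OGP and 9.35 to 11.1 FPKM in control libraries. Of 10 microglia and macrophage markers, Itgam, Adgre1 and Tyrobp were listed at 0 in every library, and Tmem119 and Cd68 were tested. The summed level of the microglia and macrophage markers was 10.9 to 12.5 FPKM in OGE, 19.5 to 22.4 FPKM in OGP and 15.3 to 20.3 FPKM in control libraries. Most of each sum was Tmem119, which averaged 8.90 FPKM in OGE, 17.1 FPKM in OGP and 14.4 FPKM in control libraries. In every library, 7 of the 10 were below 0.5 FPKM. The part of these markers in the results was not tested. Of 8 plasmacytoid dendritic and lymphoid markers, Cd3e was listed at 0 and 6 were below 0.5 FPKM in every library. The other 2 were Tcf4 and the interferon-induced gene Bst2, and the whole list summed to 346 to 363 FPKM in OGE, 897 to 929 FPKM in OGP and 559 to 746 FPKM in control libraries. In bulk RNA, fewer expressing cells and less RNA per cell cannot be told apart.

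Promoter sequences of 7 of the 9 genes were matched in RefSeq (GRCm38.p6), each covering 250 bases before to 50 bases after a transcription start; Dhx58 and Zbp1 had no entry. They are shown because most of these genes are known interferon targets. Mavs and Adar did not pass the thresholds given below in OGE over OGP, although Adar was lower in every OGE library than in any other library. The core of the interferon-stimulated response element was searched on both strands as GAAA, any 2 bases, then GAAA. It occurred in 1131 of 32851 promoters of the table (3.44%) and in those of Ddx58, Ifih1, Eif2ak2 and Ddx60. The stretches that hold it, read along the gene's own strand with the core in capitals, are as follows.
Ddx58: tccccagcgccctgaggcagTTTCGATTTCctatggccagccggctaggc
Ifih1: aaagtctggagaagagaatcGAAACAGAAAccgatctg
Eif2ak2: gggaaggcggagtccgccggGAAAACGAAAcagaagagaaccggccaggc
Ddx60: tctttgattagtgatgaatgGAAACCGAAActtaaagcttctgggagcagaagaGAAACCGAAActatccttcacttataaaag

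The Ddx58 stretch lies at chr4:40239794-40239843 on the minus strand, and its core reads on the opposite strand from a position 2 bases after the start. The Ifih1 stretch lies at chr2:62646206-62646243 (minus strand), with the core beginning 32 bases after the start. The Eif2ak2 stretch lies at chr17:78882525-78882574 (minus strand), with the core 18 bases after the start. The Ddx60 stretch lies at chr8:61928014-61928097 (plus strand) and holds the same core at 2 places, beginning 53 and 19 bases before the start. A gamma-activated site, TTC, any 3 bases, then GAA, occurred in 8.3% of all promoters and in those of Eif2ak2 and of 1 of the 3 Adar starts. After the sequences had been seen, a shorter motif bound by interferon regulatory factors was also searched as AA, any 2 bases, then GAAA. It overlaps every match of the longer core, occurred in 23.9% of all promoters, and was found in the Adar and Tlr3 promoters, shown here with that motif in capitals.
Adar: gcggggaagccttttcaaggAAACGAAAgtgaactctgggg
Tlr3: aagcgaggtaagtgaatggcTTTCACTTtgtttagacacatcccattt

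The Adar stretch belongs to the start at which the motif begins 29 bases downstream (chr3:89730727-89730767, plus strand). The Tlr3 stretch (chr8:45410412-45410459, minus strand) carries the motif on the opposite strand, from 59 bases before the start. None of the 3 motifs occurred in the Mavs window. A match is a description of the letters and not a site shown to be bound.

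Of the 9 genes, 7 fell in OGE relative to OGP cells, none rose (0 with an unadjusted p under 0.05 in limma, and 0 by voom), and Mavs and Adar did not pass both thresholds. The genes that fell were the 3 RIG-I-like receptors Ddx58, Ifih1 and Dhx58, the helicase Ddx60, the endosomal receptor Tlr3, the Z-form nucleic acid sensor Zbp1 and the kinase gene Eif2ak2. Their fitted levels were between 1.56 and 3.21 times lower. A gene was called when its adjusted p in limma (Benjamini-Hochberg over all 13245 genes) was at most 0.05 and its fold at least 1.5, on the log2(FPKM + 0.5) scale. By this rule 4.73% of all genes were lower and 3.39% higher in OGE than in OGP. As the 9 genes were chosen with earlier results known, these shares are a description and not a test. The median log2 fold change of the 9 genes was -1.22, beside 0.0039 over all genes tested.

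**Figure D1:**
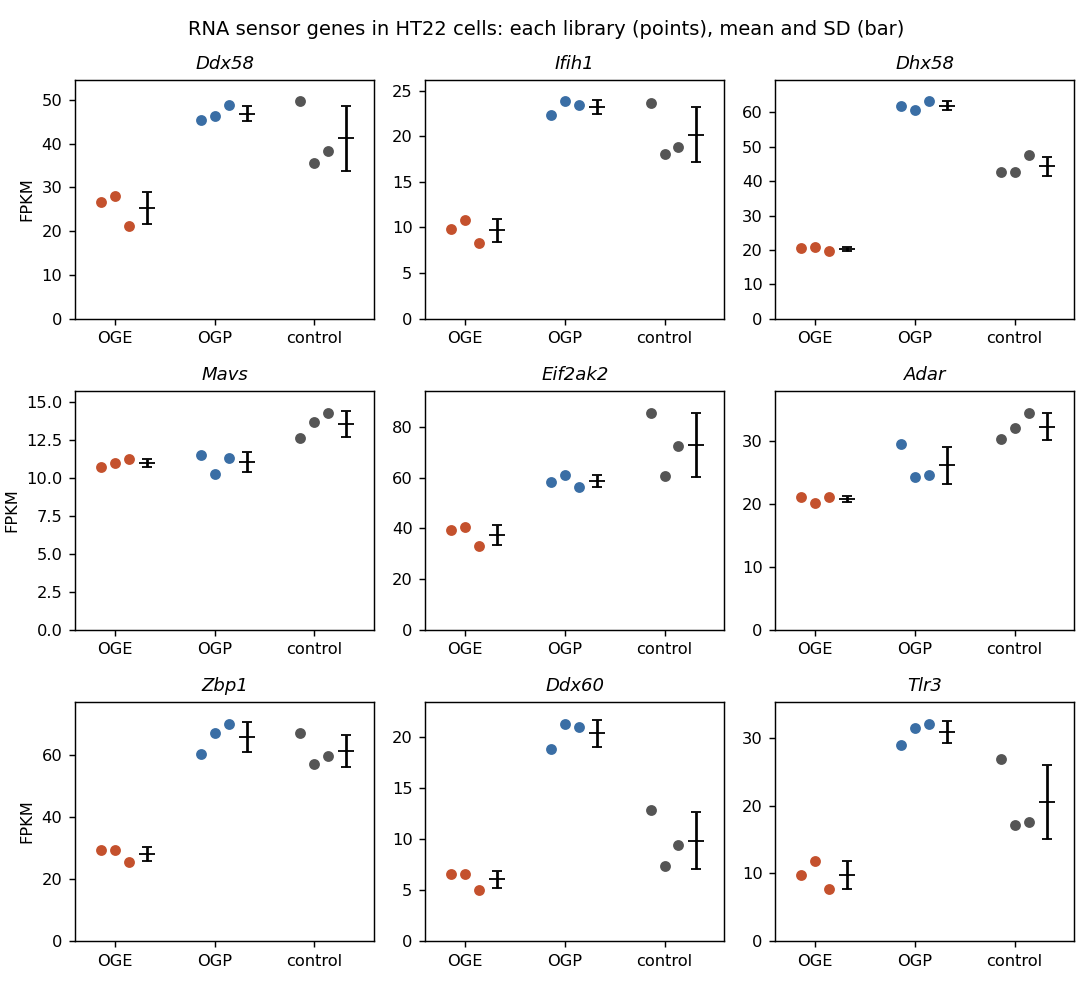
FPKM of the 9 RNA sensor genes (vertical axes, linear, each starting at 0) in the 3 OGE, 3 OGP and 3 control libraries. Points are libraries, and the bar beside them is the mean with its SD. The OGE points are the lowest for 8 genes, and for Mavs they lie among the OGP points.

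Ddx58, which encodes RIG-I, the receptor for RNA with a 5′ triphosphate end, was measured at 26.7, 28.0 and 21.1 FPKM in OGE libraries, 45.5, 46.2 and 48.9 FPKM in OGP libraries and 49.6, 35.5 and 38.4 FPKM in control libraries (chr4:40203773-40239828). The OGE libraries lay below all others, while OGP and control libraries overlapped, with control library 1 the highest of all. Its log2 fold change was -0.89 ± 0.14 (SE) in OGE over OGP (adjusted p = 0.00252). Ifih1, which encodes MDA5, the receptor for long double-stranded RNA, was measured at 9.85, 10.8 and 8.33 FPKM in OGE, 22.4, 23.8 and 23.4 FPKM in OGP and 23.6, 18.0 and 18.8 FPKM in control libraries (chr2:62595798-62646255). Again the OGE libraries stood below the other groups and control library 1 lay above the other control libraries. The log2 fold change of Ifih1 was -1.23 ± 0.12 in OGE over OGP (adjusted p = 1.61e-04).

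Dhx58 encodes LGP2, which lacks the signalling domains of RIG-I and MDA5 and tunes their activity. It was measured at 20.5, 20.7 and 19.7 FPKM in OGE, 61.9, 60.7 and 63.2 FPKM in OGP and 42.7, 42.7 and 47.5 FPKM in control libraries (chr11:100694884-100704271). None of the 3 groups overlapped, and the libraries of each group were close together. Dhx58 had the smallest adjusted p of the 9 genes in OGE over OGP, with a log2 fold change of -1.58 ± 0.07 (adjusted p = 2.55e-06). Of the RIG-I-like receptors, Dhx58 had the largest fitted fold, 3.0, against 2.34 for Ifih1 and 1.85 for Ddx58; the differences between these folds were not tested. An antisense transcript, Dhx58os, overlaps the gene but had at most 19 reads in a library.

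Ddx60 encodes a helicase that has been described as a cofactor of RIG-I. It was measured at 6.51, 6.54 and 5.03 FPKM in OGE, 18.8, 21.3 and 20.9 FPKM in OGP and 12.8, 7.30 and 9.39 FPKM in control libraries (chr8:61928087-62038244). No groups overlapped, and the control libraries spread more widely than the others. Its log2 fold change in OGE over OGP was -1.68 ± 0.18 (adjusted p = 2.61e-04), close to that of Tlr3. Without OGE library 2 it was -1.74, against -1.78 for Tlr3. Among all 13245 genes, 72 had a lower log2 fold change.

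Tlr3, the only endosomal sensor of the 9 genes, was measured at 9.73, 11.8 and 7.69 FPKM in OGE, 29.0, 31.5 and 32.1 FPKM in OGP and 26.9, 17.1 and 17.6 FPKM in control libraries (chr8:45395665-45411080). The OGE libraries were lowest and the OGP libraries highest, and control library 1 lay near the OGP libraries. Its log2 fold change was -1.63 ± 0.19 in OGE over OGP (adjusted p = 4.26e-04). Zbp1, whose protein binds Z-form RNA and DNA and can start necroptosis through RIPK3, was measured at 29.4, 29.3 and 25.6 FPKM in OGE, 60.5, 67.1 and 70.2 FPKM in OGP and 67.3, 57.2 and 59.6 FPKM in control libraries (chr2:173206612-173218923). OGP and control libraries overlapped, and every OGE library was below them. The log2 fold change of Zbp1 was -1.22 ± 0.09 (adjusted p = 4.27e-05).

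Eif2ak2 encodes PKR, the kinase that phosphorylates eIF2α and stops translation when it binds double-stranded RNA. It was measured at 39.2, 40.4 and 33.1 FPKM in OGE, 58.3, 61.3 and 56.4 FPKM in OGP and 85.7, 60.6 and 72.3 FPKM in control libraries (chr17:78852564-78882573). Every OGE library lay below the other 6, and OGP and control libraries overlapped. Its log2 fold change was -0.64 ± 0.13 in OGE over OGP (adjusted p = 0.00823), a fold of 1.56 that lies just past the threshold. Without OGE library 3 the log2 fold change was -0.55 (adjusted p = 0.0319), and with quantile normalization it was -0.52 (adjusted p = 0.0396), both short of a fold of 1.5.

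Adar encodes ADAR1, which edits adenosine to inosine in double-stranded RNA and so keeps a cell's own RNA from being sensed. It was measured at 21.1, 20.2 and 21.2 FPKM in OGE, 29.6, 24.3 and 24.6 FPKM in OGP and 30.3, 32.2 and 34.6 FPKM in control libraries (chr3:89715022-89753446). The groups did not overlap, with the lowest libraries in OGE and the highest in control. Adar was 1.25 times lower in OGE than in OGP, a log2 fold change of -0.32 ± 0.09 (adjusted p = 0.0373), under the fold threshold. Mavs, the adaptor shared by RIG-I and MDA5, was measured at 10.7, 10.98 and 11.2 FPKM in OGE, 11.5, 10.3 and 11.3 FPKM in OGP and 12.6, 13.7 and 14.3 FPKM in control libraries (chr2:131234063-131248025). OGE and OGP libraries overlapped, and the log2 fold change between them was -0.0066 ± 0.076 (adjusted p = 0.961).

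**Figure D2:**
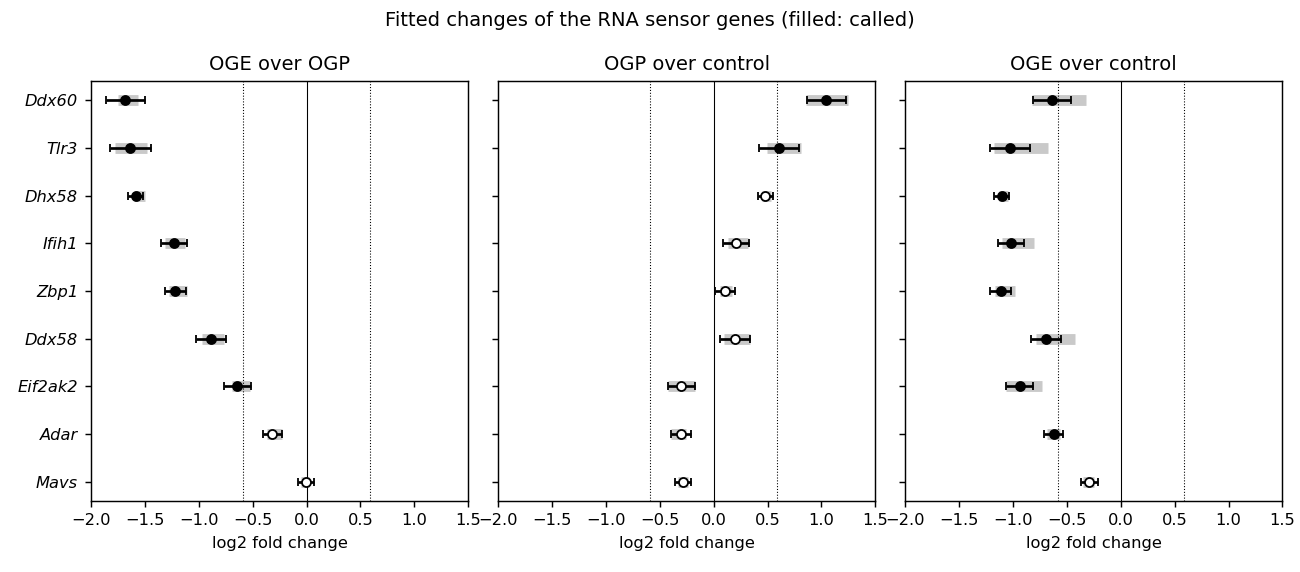
Fitted log2 fold changes (horizontal axes) of the 9 genes in OGE over OGP, OGP over control and OGE over control. Points are estimates with their SE, filled where the gene was called, grey bars span the estimates under the alternative settings, and dotted lines mark a fold of 1.5. Ddx60, Tlr3 and Dhx58 lie farthest to the left in OGE over OGP, and Ddx60 lies farthest to the right in OGP over control.

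In OGP relative to control cells, Ddx60 and Tlr3 rose and the other 7 genes were not called. None of the 9 was called lower by limma or by voom, although 3 had a lower level at an unadjusted p under 0.05. Ddx60 was 2.06 times higher, with a log2 fold change of 1.05 ± 0.18 (adjusted p = 0.00281). Tlr3 was 1.52 times higher, at the edge of the threshold, with a log2 fold change of 0.61 ± 0.19 (adjusted p = 0.0378). The background was 6.38% of all genes called higher and 5.74% called lower. The Tlr3 call held in 13 of 21 alternative settings, and Ddx60 was called in all 21. Tlr3 lost its call without OGE library 1 (adjusted p = 0.0575), OGP library 1 (0.0647), OGP library 2 (0.103), OGP library 3 (0.110), control library 2 (0.112) or control library 3 (0.120).

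The remaining genes were close in the 2 groups or changed by less than 1.5-fold. Dhx58 was 1.40 times higher in OGP than in control, with a log2 fold change of 0.48 ± 0.07 (adjusted p = 0.00118) and no overlap. Mavs (-0.28 ± 0.08, adjusted p = 0.0214) and Adar (-0.31 ± 0.09, adjusted p = 0.0326) had lower levels in every OGP library than in any control library. For Ddx58, Ifih1, Zbp1 and Eif2ak2 the log2 fold changes were 0.20, 0.21, 0.10 and -0.30, with adjusted p between 0.109 and 0.442. Control library 1 had the highest level of its group for Ddx58, Ifih1, Eif2ak2, Zbp1, Ddx60 and Tlr3. Without it the log2 fold changes over control were 1.24 for Ddx60 (adjusted p = 3.74e-04), 0.81 for Tlr3 (0.00359), 0.34 for Ddx58 (0.0469) and 0.32 for Ifih1 (0.0357), the last 2 under the fold threshold.

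Against untreated control cells, OGE cells had lower levels of 8 of the 9 genes, with Mavs the exception, and 6.33% of all genes were called lower and 5.14% higher in that comparison. Zbp1 (-1.11, adjusted p = 5.18e-05), Dhx58 (-1.10, 8.94e-06), Tlr3 (-1.03, 0.00414), Ifih1 (-1.02, 3.66e-04) and Eif2ak2 (-0.94, 8.13e-04) showed log2 fold changes close to or past -1. Ddx58 (-0.69, adjusted p = 0.00679), Ddx60 (-0.64, 0.0297) and Adar (-0.62, 0.00122) changed less. Mavs had a log2 fold change of -0.29 (adjusted p = 0.0220). For 8 genes, all 3 OGE libraries lay below the other 6, a pattern shown by 8.19% of all genes tested. The OGE and OGP comparisons with control share the control libraries, and the comparisons of OGE share the OGE libraries.

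The smaller of these decreases depended on single libraries, and those of Adar and Ddx60 also on the processing. Ddx58 was at -0.57 on the log2 scale without OGE library 3 and at -0.55 without control library 1, each short of the fold threshold. Adar was at -0.57 without control library 3 and at -0.56 with quantile normalization, each short of the fold threshold. Ddx60 was called in 13 of 21 settings and was at -0.44 without control library 1 and -0.52 without OGE library 3, and its adjusted p was 0.0580 without OGE library 1, 0.0524 without OGE library 2 and 0.0719 without control library 3. With OGE library 3 and control library 1 both left out, it was at -0.32 (adjusted p = 0.0641). The adjusted p of Ddx60 was 0.0748 without the filter on low values and 0.0730 when only the 6 compared libraries were fitted. The other 5 decreases held in all 21 settings.

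The order of the genes by level was as follows in each group. In OGE cells Eif2ak2 was the most abundant (37.6 ± 3.92 FPKM, SD, n = 3 in each group), followed by Zbp1 (28.1 ± 2.15 FPKM), Ddx58 (25.3 ± 3.69 FPKM), Adar (20.8 ± 0.542 FPKM) and Dhx58 (20.3 ± 0.542 FPKM), of which each neighbour from Zbp1 to Dhx58 overlapped the next. Mavs (10.97 ± 0.270 FPKM), Tlr3 (9.74 ± 2.06 FPKM) and Ifih1 (9.67 ± 1.27 FPKM) overlapped as well, and Ddx60 was lowest (6.03 ± 0.864 FPKM). In OGP cells Zbp1 (65.9 ± 4.94 FPKM), Dhx58 (62.0 ± 1.22 FPKM) and Eif2ak2 (58.7 ± 2.44 FPKM) overlapped at the top, above Ddx58 (46.9 ± 1.79 FPKM). Tlr3 (30.9 ± 1.63 FPKM) and Adar (26.2 ± 2.94 FPKM) overlapped, and Ifih1 (23.2 ± 0.737 FPKM), Ddx60 (20.3 ± 1.33 FPKM) and Mavs (11.03 ± 0.663 FPKM) followed without overlap.

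In control cells Eif2ak2 (72.9 ± 12.6 FPKM) and Zbp1 (61.3 ± 5.26 FPKM) overlapped at the top, followed by Dhx58 (44.3 ± 2.78 FPKM) and Ddx58 (41.2 ± 7.44 FPKM), which overlapped with each other. Adar (32.4 ± 2.14 FPKM) came next, then Tlr3 (20.5 ± 5.50 FPKM) and Ifih1 (20.1 ± 3.01 FPKM), whose ranges overlapped, and at the low end Mavs (13.5 ± 0.831 FPKM) and Ddx60 (9.82 ± 2.77 FPKM), which overlapped too. Dhx58 thus stood at 0.524, 0.513 and 0.596 times the Eif2ak2 level within OGE libraries, at 1.06, 0.991 and 1.12 times within OGP libraries and at 0.499, 0.705 and 0.657 times within control libraries. Dhx58 was 1.92, 1.89 and 1.76 times Mavs in OGE libraries and 5.38, 5.91 and 5.59 times Mavs in OGP libraries. Over all 9 libraries, the mean of Eif2ak2 was above that of 92.6% of the genes tested and that of Mavs above 63.7%, with the other sensors between them.

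The genes around the sensors were described in lists of their known roles, from which the 9 sensor genes themselves were left out. The 22 tested RIG-I cofactors and ubiquitin ligases had a median log2 fold change of -0.0037 in OGE over OGP, with 2 lower and 1 higher. Without control library 1 Rnf125 was also called higher in OGE over OGP (0.73, adjusted p = 0.0457). The 2 lower were Uba7, the activating enzyme for the ubiquitin-like protein ISG15, and Nlrc5, a transactivator of MHC class I genes. Uba7 was measured at 3.32, 2.81 and 4.0 FPKM in OGE, 12.4, 10.3 and 11.1 FPKM in OGP and 5.22, 5.52 and 5.42 FPKM in control libraries. It was lower in OGE than in OGP (-1.61 ± 0.12, adjusted p = 2.79e-05) and higher in OGP than in control (1.00 ± 0.12, adjusted p = 4.07e-04), with no overlap. Nlrc5 fell by 0.62 on the log2 scale in OGE relative to OGP, and was at -0.55 without OGE library 2 or OGP library 1, short of the fold threshold. Mex3c, an RNA-binding ubiquitin ligase, ran the other way, with means of 20.1 ± 1.70 FPKM in OGE, 12.8 ± 0.836 FPKM in OGP and 20.1 ± 3.17 FPKM in control libraries (0.63 in OGE over OGP and -0.62 in OGP over control, both called). Without OGP library 1 these were 0.58 and -0.57, without OGE library 2 the first was 0.58, and without control library 1 the second was -0.50, all short of the fold threshold. Trim25, the ligase that modifies RIG-I, averaged 31.9 ± 1.15 FPKM in OGE, 38.9 ± 2.61 FPKM in OGP and 58.7 ± 2.38 FPKM in control libraries. It was called lower in OGP than in control (-0.59, adjusted p = 6.00e-04, and between -0.58 and -0.55 without OGP library 2 or 3 or control library 1 or 3) and in OGE than in control (-0.87, adjusted p = 5.24e-05).

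Among the 17 tested adaptors and kinases downstream of MAVS and TRIF, none was called in OGE over OGP or in OGP over control, with medians of 0.10 and -0.06. In limma 5 of them reached an unadjusted p under 0.05 in OGE over OGP and 3 in OGP over control, and voom called 1 and 0. Some missed only the fold threshold. By adjusted p alone, 2 were higher and 1 lower in OGE over OGP, and 1 was higher and 2 lower in OGP over control. Without OGE library 3, Traf5 was called lower in OGE over OGP (-0.63, adjusted p = 0.0223). Tbk1, the kinase on which both routes converge, was measured at 19.1, 18.8 and 19.0 FPKM in OGE, 19.5, 18.4 and 17.9 FPKM in OGP and 20.6, 18.3 and 19.7 FPKM in control libraries, and all groups overlapped. Its log2 fold change in OGE over OGP was 0.03 ± 0.07 (adjusted p = 0.820). The TRIF gene Ticam1 had log2 fold changes of 0.10 in OGE over OGP (adjusted p = 0.482) and -0.43 in OGP over control (0.00937), the second under the fold threshold. Tbk1, Ticam1, and below Irf3, Ripk3 and Mlkl, were picked after their values were seen, for their place in the pathway. In OGE over control, Ikbkg was called higher and Traf5 and Tmem173 lower, the last in 13 of 21 settings and not without OGE library 2 or 3 or control library 1 or 3. These were named after their values were seen.

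Of the 11 transcription factors, 6 were lower in OGE than in OGP and none was called in OGP over control, with medians of -0.65 and -0.04. In OGP over control, 3 had an unadjusted p under 0.05 in limma and voom called 0. By adjusted p alone, 1 was higher and 2 lower in OGP over control. Irf7, which amplifies interferon production, was measured at 25.4, 25.1 and 25.6 FPKM in OGE, 90.0, 85.8 and 84.1 FPKM in OGP and 56.0, 73.6 and 75.1 FPKM in control libraries. No groups overlapped, and the log2 fold change in OGE over OGP was -1.75 ± 0.11 (adjusted p = 1.25e-05). Stat2 (-0.95 ± 0.10, adjusted p = 2.59e-04) and Irf9 (-0.65 ± 0.06, 1.67e-04), which answer to interferon, were lower as well. Jun, a subunit of AP-1, had a log2 fold change of -1.53 (adjusted p = 1.76e-04). Irf5 had 3 to 5 reads in each OGE library, against 35 to 42 in OGP and 33 to 43 in control libraries, and passed the minimum level only through the OGP and control libraries. Without Irf5, 5 of 10 factors were lower in OGE than in OGP, with a median of -0.56. Irf3, the factor that MAVS and TRIF activate first, averaged 11.4 ± 2.00 FPKM in OGE, 12.9 ± 0.181 FPKM in OGP and 10.7 ± 1.5 FPKM in control libraries and was not called in any comparison.

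**Figure D3:**
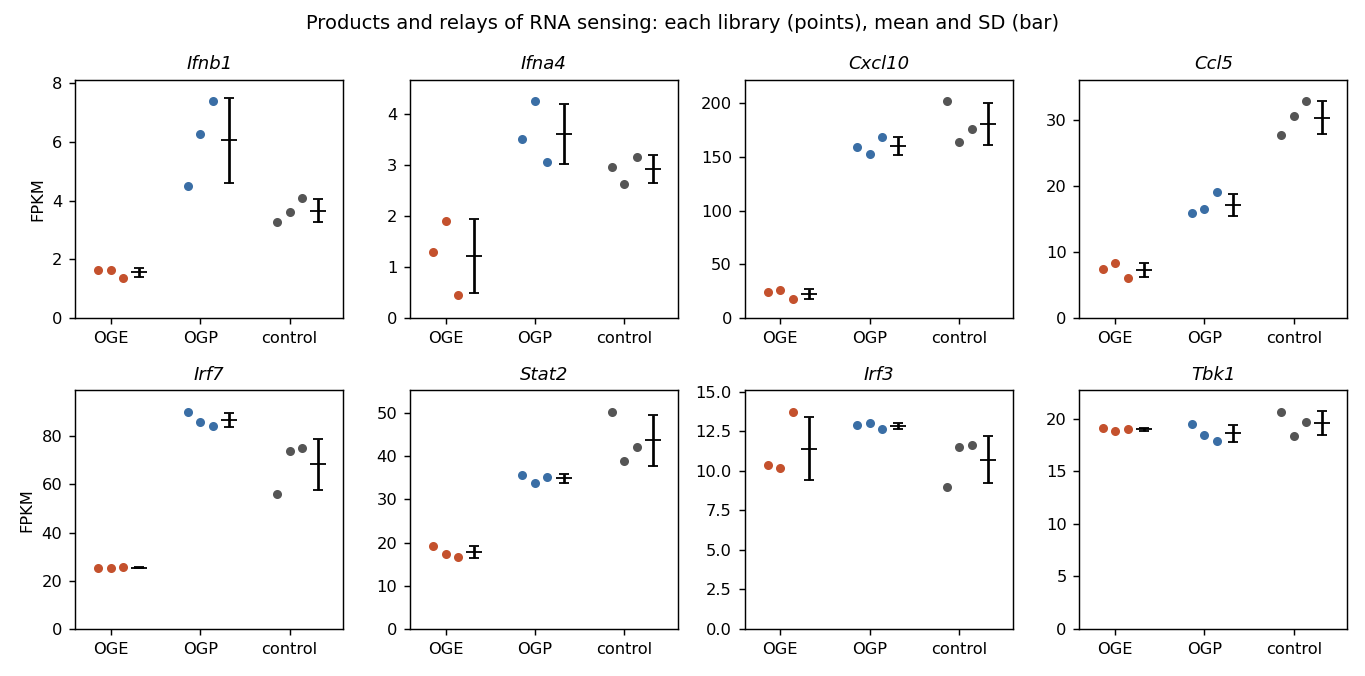
FPKM (vertical axes, linear, each starting at 0) of 4 products of RNA sensing and 4 relays in the 3 OGE, 3 OGP and 3 control libraries. Points are libraries, and the bar beside them is the mean with its SD. For Ifnb1, Ifna4, Cxcl10, Ccl5, Irf7 and Stat2 the OGE points lie below all others, and for Irf3 and Tbk1 they overlap those of both other groups.

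The products of the pathway were lower in OGE cells for 5 of the 6 cytokine genes tested, with a median log2 fold change of -1.27. Ifnb1, which encodes interferon beta, was measured at 1.64, 1.65 and 1.38 FPKM in OGE, 4.51, 6.27 and 7.37 FPKM in OGP and 3.28, 3.62 and 4.09 FPKM in control libraries. These values rest on 22, 21 and 16 reads in OGE, 67, 77 and 90 reads in OGP and 43, 46 and 57 reads in control libraries, and no groups overlapped. The log2 fold change of Ifnb1 was -1.65 ± 0.16 in OGE over OGP (adjusted p = 1.51e-04) and 0.63 ± 0.16 in OGP over control (adjusted p = 0.0168), the second called in 16 of 21 settings. Without OGP library 2 or 3 the second had an adjusted p of 0.0622 or 0.0614, and without control library 1 it was 0.57 on the log2 scale. Ifna4, an interferon alpha gene, had 13, 18 and 4 reads in OGE, 39, 39 and 28 in OGP and 29, 25 and 33 in control libraries (-1.35 in OGE over OGP, adjusted p = 0.0105). Near-identical interferon alpha genes can share reads, so its values are uncertain.

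The chemokine gene Cxcl10 was measured at 24.2, 26.7 and 17.7 FPKM in OGE, 159, 153 and 169 FPKM in OGP and 202, 164 and 176 FPKM in control libraries, and fell by 2.80 on the log2 scale in OGE relative to OGP (adjusted p = 5.45e-06). Ccl5 averaged 7.32 ± 1.11 FPKM in OGE, 17.2 ± 1.70 FPKM in OGP and 30.4 ± 2.55 FPKM in control libraries, and was called lower in OGE than in OGP (-1.19) and in OGP than in control (-0.81). Il15, which encodes a cytokine for natural killer and memory T cells, had a log2 fold change of -1.13 in OGE over OGP (adjusted p = 5.64e-04). Il6 was not called in OGE over OGP (0.31, adjusted p = 0.377), but was lower in OGP than in control, with 1.94, 3.57 and 3.62 FPKM in OGP and 16.4, 14.8 and 10.9 FPKM in control libraries (-2.06 ± 0.23, adjusted p = 3.02e-04). Against control, all 6 were lower in OGE, although Il15 was at -0.55 without control library 1 and Ifna4 had an adjusted p of 0.0687 without control library 3. Ifnl2 and Tnf were listed at 0 in all 9 libraries.

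The genes around eIF2α and those of ZBP1 and PKR death signalling were mostly not called. Apart from Eif2ak2, described above as a sensor and lower in OGE, none of the 11 tested kinases, phosphatases and subunits around eIF2α was called in any of the 3 comparisons, with medians of 0.07 in OGE over OGP and 0.05 in OGP over control. With limma, an unadjusted p under 0.05 was reached by 2 of them upwards and 3 downwards in OGE over OGP, by 4 and 3 in OGP over control and by 1 and 1 in OGE over control, and voom called 0. Several passed the adjusted p and missed only the fold threshold. By adjusted p alone, 1 was higher and 1 lower in OGE over OGP. The counts were 4 and 1 in OGP over control and 1 and 1 in OGE over control. Without control library 2, Ppp1r15a, which encodes a regulatory subunit of the eIF2α phosphatase, was called higher in OGP over control (0.64, adjusted p = 0.00213). The log2 fold changes of the 11 genes in OGE over OGP lay between -0.50 and 0.27. Of the 11 tested genes of ZBP1 and PKR death signalling, only Gsdmd was called in OGE over OGP, and none was called in OGP over control by limma (4 with an unadjusted p under 0.05) against 1 by voom. By adjusted p alone, 2 of these genes were higher and 2 lower in OGE over OGP, and 1 was higher and 1 lower in OGP over control. Gsdmd, which encodes the pore-forming protein of pyroptosis, averaged 30.7 ± 2.89 FPKM in OGE, 51.4 ± 0.466 FPKM in OGP and 45.2 ± 2.27 FPKM in control libraries (-0.74 ± 0.08 in OGE over OGP, adjusted p = 3.64e-04). Ripk3, the partner kinase of ZBP1 in necroptosis, averaged 16.0 ± 1.01 FPKM in OGE, 16.0 ± 1.39 FPKM in OGP and 18.9 ± 2.22 FPKM in control libraries (0.0076 in OGE over OGP, adjusted p = 0.967). Its target Mlkl had a log2 fold change of -0.50 (adjusted p = 0.00385), under the fold threshold.

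Of the 20 tested genes of double-stranded RNA binding, editing and processing, 1 was called higher and 1 lower in OGE over OGP, with a median of 0.13. The higher one was Adarb1, which encodes the editing enzyme ADAR2. Adarb1 was measured at 16.5, 17.3 and 18.8 FPKM in OGE, 5.63, 4.76 and 4.58 FPKM in OGP and 5.62, 5.30 and 6.01 FPKM in control libraries. OGE libraries lay above all others, OGP and control libraries overlapped, and the log2 fold change was 1.72 ± 0.09 in OGE over OGP (adjusted p = 7.90e-06), opposite in sign to that of Adar. Pnpt1, a mitochondrial RNA exonuclease that limits double-stranded RNA, was the lower one (-0.74 ± 0.17, adjusted p = 0.0140). Its adjusted p was between 0.0503 and 0.0593 without OGE library 1 or 3 or OGP library 2 or 3. Dnajc3, which encodes an inhibitor of PKR, was higher in OGP than in control (0.78 ± 0.10, adjusted p = 8.44e-04) and was not called in OGE over OGP (0.08). Adarb2 and Adad1 were listed at 0 in all 9 libraries.

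**Figure D4:**
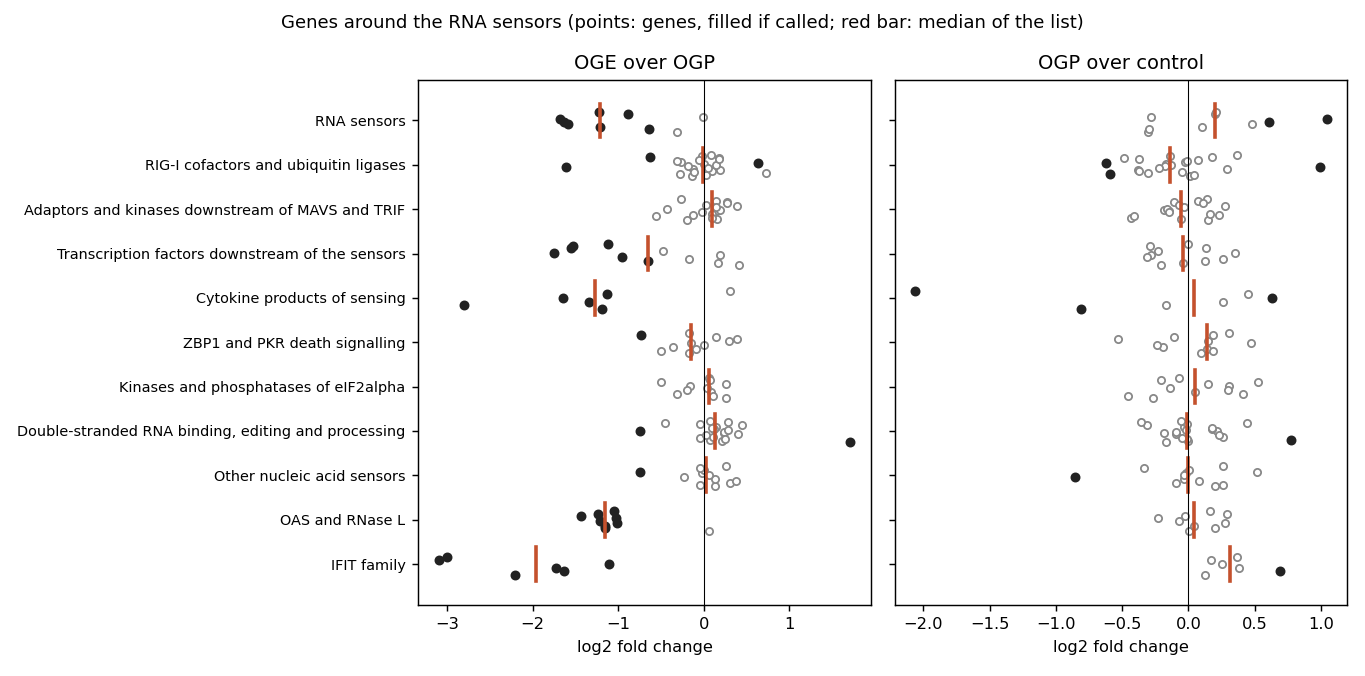
Log2 fold changes (horizontal axes) of the tested genes in 11 lists, in OGE over OGP (left) and OGP over control (right). Points are genes, filled where called and offset vertically for legibility, and red bars are list medians. In OGE over OGP the sensors, the cytokine products and the OAS and IFIT genes have medians between -1.97 and -1.15, whereas those of the adaptors, the eIF2α kinases and the other nucleic acid sensors lie between 0.03 and 0.10.

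Other nucleic acid sensors, of RNA as well as of DNA, were also listed. The 12 tested include DNA sensors, the helicase genes Ddx1, Ddx21, Dhx15, Dhx33 and Dhx36, and Nod2. Among them, only Ifi204 was called in OGE over OGP, where it was lower (-0.75 ± 0.11, adjusted p = 0.00162). Only Nod2 was called in OGP over control, also lower (-0.86 ± 0.13, adjusted p = 0.00126). Without control library 1, Ifi204 was called higher in OGP than in control (0.61, adjusted p = 0.00183, against 0.52 with it). The list's median was 0.03 in OGE over OGP. Ifi204 encodes a DNA-binding protein of a mouse family with close paralogs, so reads may be split among its members. Tlr8 and Tlr9 were listed at 0 in every library.

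Interferon-induced effectors that bind or answer to double-stranded RNA were lower in OGE than in OGP in large part. Of the 9 tested genes of the OAS and RNase L list, 8 were lower in OGE than in OGP (median -1.15). None was called in OGP over control by limma or voom (median 0.04), and 4 had an unadjusted p under 0.05. By adjusted p alone, 1 was higher in OGP over control. Oas3, an enzyme that makes the 2′-5′-linked oligoadenylates that activate RNase L, averaged 6.27 ± 0.167 FPKM in OGE, 17.9 ± 1.63 FPKM in OGP and 18.2 ± 0.885 FPKM in control libraries, and Oas1a averaged 51.6 ± 1.23 FPKM, 123 ± 5.28 FPKM and 100.2 ± 6.35 FPKM in the same groups. All 6 genes of the IFIT family, whose proteins bind foreign RNA ends, were lower in OGE than in OGP (median -1.97), and Ifit1bl1 alone was called higher in OGP than in control (0.69, adjusted p = 0.00740). Ifit1bl1 averaged 0.149 FPKM in OGE, 1.51 FPKM in OGP and 0.745 FPKM in control libraries and passed the minimum level only through the groups where it was high. Its log2 fold change over control was 0.53 with a pseudocount of 1 FPKM, short of the fold threshold, and it was not tested at a minimum mean of 1 FPKM. Without it 5 of 5 were lower in OGE than in OGP (median -2.21). Ifit3 averaged 51.6 ± 10.6 FPKM in OGE, 440.1 ± 27.1 FPKM in OGP and 391 ± 22.1 FPKM in control libraries, and its near-identical neighbour Ifit3b had a log2 fold change of -3.00. Reads of close paralogs in both families may be split among them.

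The genes most like each sensor across the 9 libraries, by Pearson's r on the log2 scale, are given as a description, since the libraries fall into 3 groups and share them. Closest to Ddx58 were Gbp7 (r = 0.994), Ifi203 (0.989) and Nrg1 (0.988). Closest to Ifih1 were Chrdl1 (0.997), Ifi44 (0.997) and Iigp1 (0.995), and closest to Zbp1 were Iigp1 (0.996), Gm4951 (0.995) and Ifit1 (0.995). Closest to Dhx58 were Igtp (0.992), Gm12250 (0.991) and Prelp (0.991). Ddx60 was closest to Gm12185 (0.997), Gbp9 (0.995) and Trim34a (0.993). Tlr3 was closest to Sema3a (0.995), Trim34b (0.994) and Csprs (0.990). Eif2ak2 was closest to Slfn8 (0.994), 1700025G04Rik (0.992) and Arhgap29 (0.986), and Adar to Helz2 (0.986), Pfkfb4 (0.978) and Zbtb4 (0.976).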

How the data were processed

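RNA of HT22 cells was selected with poly-T beads, and paired-end libraries were sequenced. The authors aligned reads with HISAT2 2.0.5 (mm10), counted them per gene and deposited FPKM for all 9 libraries, with gene lengths. The sources used here do not say whether counting used strand, so opposite-strand overlaps (Dhx58os, Chrnb2 with Adar) cannot be separated. FPKM multiplied by gene length gave whole reads (within 0.1), which served only to state depth and for voom as an alternative. The main test was limma 3.58.1 in R 4.3.3 (trended variance) on log2(FPKM + 0.5), for genes whose mean reached 0.5 FPKM, in 1 model of the 3 groups. It was also run on simulated counts, with the same dispersion for every gene and no library that stood apart. That run cannot show how the test behaves with libraries such as OGE library 3 and control library 1. Fold changes on this scale understate the changes of low genes such as Irf5. Gene coordinates are from the deposited table, and for the 9 members equal those of GENCODE M21.

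The 9 members and the gene lists were chosen with earlier results of these data known. Named from the lists are genes called in OGE over OGP or OGP over control (up to 6 per list and comparison, by smallest p) and genes listed at 0, and for OAS and IFIT 2 examples. For each called sensor, the 3 genes with the highest r are named. In total 21 alternatives were tried, among them other pseudocounts, filters and scalings and each of the 9 libraries left out in turn. Some genes of the lists are not reported here by name.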

Additional observations from a re-analysis of the deposited data

How the results depend on the processing

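Across the 21 alternatives, the call of each sensor gene was the same in 185 of 189 fits in OGE over OGP, 178 in OGP over control and 175 in OGE over control, and no called fold change reversed. Some of these settings could not move a fold change. Leaving out a library of the group not compared, the replicate block and robust variance changed only its error and p. Dropping the fold threshold could not remove a call. The shares above count such settings too. The sign of Mavs in OGE over OGP, where it was not called, was positive in 4 settings (0.01 with voom, 0.01 without OGE library 1, 0.02 without OGP library 1 and 0.01 without OGP library 3). With libraries left out in turn, 6 to 7 sensors were lower in OGE than in OGP, 6 to 8 were lower in OGE than in control, and 1 to 2 were higher in OGP than in control. Without the filter on low values 1 sensor was called higher in OGP than in control, and without the fold threshold 2 were called lower. Over all genes, 1075 were called in OGE over OGP, 1605 in OGP over control and 1519 in OGE over control. Without the fold threshold these were 2750, 3941 and 3287, and with libraries left out they ranged between 889 and 1181, 1340 and 1912, and 1342 and 2017. For the list counts, 1172 of 1260 stayed within 1.5 times the main count and 88 did not. The cause of these differences was not tested.

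A replicate block left 1 sensor (Ddx60) higher in OGP than in control, since Tlr3 had an adjusted p of 0.0535, and changed no other call of a sensor. Deviations of same-numbered libraries correlated between -0.177 and 0.319, and those of different-numbered libraries between -0.346 and 0.264. These ranges overlap and cannot show whether the numbers are pairs, and the main fit did not take them as pairs. Ifnb1, Ifna4 and Irf5 rest on few reads, which limits their precision.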
